A study of Mus musculus with 27 samples.

Results

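In mouse embryonic fibroblasts (MEFs) with and without the *Firre* locus, RNA-seq was examined for 49 genes that carry a cell through mitosis and separate its chromosomes. The genes were taken by symbol from a list of mitotic regulators, all 49 of them were found among the 37310 genes of the count table, and all 49 were among the 15387 genes with enough reads for a test. The 12 libraries form 4 groups of 3, which are female wild-type, female *Firre* KO, male wild-type and male *Firre* KO MEFs. The KO cells came from mice in which recombination between loxP sites had removed the whole *Firre* long non-coding RNA gene on chromosome X, and the wild-type cells carry an intact locus. MEFs are mixed primary cultures grown from the trunk of single midgestation embryos, and the labels give neither a passage nor an age in culture. The labels number the replicates but do not say that they came from separate embryos or cultures, so the p-values measure the spread between libraries, which may be technical. The study used these libraries to check the deletion and to follow transcription after loss of the locus.

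Mitosis begins when the kinase CDK1, bound to a B-type cyclin and freed of inhibitory phosphates by CDC25 phosphatases, phosphorylates its targets. Condensins and topoisomerase II then shape the chromosomes, motors and microtubule-binding proteins build the spindle, and the checkpoint holds back the anaphase-promoting complex (APC/C) until every kinetochore is attached. The mRNAs of these proteins are made late in the cell cycle and are scarce in resting cells, so in a culture their summed level is commonly read as a sign of how many cells are dividing. In bulk RNA a smaller share of dividing cells and less mRNA per dividing cell cannot be told apart.

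The libraries held 42986516 to 65454660 expected counts each, with more in every male library than in every female library. Expected counts of *Firre* were 90 to 129 in the female wild-type libraries, 239 to 307 in the male ones and 0 in all 6 KO libraries. The 10 fibroblast markers summed to 10942 to 13181 CPM, the count scaled to the total of its library, in female wild-type MEFs. They summed to 10945 to 12910 CPM in female KO, 12692 to 15311 CPM in male wild-type and 13093 to 15034 CPM in male KO MEFs. The sexes thus did not overlap in KO MEFs. The 10 macrophage markers, none of which was at 0 throughout, summed to 47.5 to 82.6 CPM in female wild-type and 37.2 to 115 CPM in female KO MEFs, against 9.87 to 14.5 and 8.63 to 15.9 CPM in male wild-type and KO MEFs. The 8 epithelial markers summed to 77.1 to 136, 81.2 to 84.8, 41.7 to 54.4 and 44.6 to 48.0 CPM in the same order of groups, and the 7 endothelial markers to 25.8 to 36.4, 26.1 to 32.5, 17.9 to 22.9 and 20.5 to 24.4 CPM. The 7 neural markers summed to 637 to 678, 599 to 813, 461 to 635 and 463 to 545 CPM, so the sexes did not overlap in either genotype, and the 10 skeletal muscle markers to 98.4 to 154, 88.2 to 148, 104 to 146 and 79.4 to 116 CPM. Single muscle markers differed more than their sum. *Myog*, a myogenic transcription factor gene, was at 1.19, 0.840 and 5.86 CPM in the female wild-type libraries against 0.135, 0.161 and 0.0937 CPM in the male ones, and the myosin light chain gene *Mylpf* at 3.69, 3.01 and 14.1 against 0.776, 1.13 and 0.431 CPM, while the actin gene *Acta1* was lower in the female ones, at 74.4, 63.1 and 74.0 against 101, 89.2 and 113 CPM.

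A single library stood apart from its group in each set of KO MEFs. The 49 mitosis genes together took 3674, 3857 and 3678 CPM in female wild-type replicates 1 to 3, and 3926, 4494 and 3894 CPM in female KO replicates 1 to 3. In male MEFs they took 3709, 3685 and 4216 CPM in the wild-type replicates and 3785, 4045 and 5126 CPM in the KO replicates. Female KO replicate 2 was the highest library of its group for 49 of 49 genes, and male KO replicate 3 for 48 of 49. Male wild-type replicate 3 was the highest of its group for 38 of 49. Other genes also moved in these libraries. The macrophage markers summed to 53.6, 115 and 37.2 CPM in female KO replicates 1 to 3, so they too were highest in replicate 2, and to 8.63, 15.9 and 13.3 CPM in the male ones. The fibroblast marker *Pdgfra* was at 17.8, 15.6 and 56.1 CPM and *Dcn* at 4.30, 3.93 and 14.4 CPM in male KO replicates 1 to 3, while the 10 fibroblast markers summed to 13454, 15034 and 13093 CPM. In female KO replicates 1 to 3 *Pdgfra* was at 7.13, 16.8 and 7.45 CPM and *Dcn* at 5.34, 16.5 and 6.15 CPM, and the 10 markers summed to 10945, 12669 and 12910 CPM. In the male wild-type replicates *Dcn* was at 4.88, 5.99 and 17.2 CPM, while *Col1a1*, at 3770, 3440 and 2788 CPM, and the sum of the 10 markers, at 14622, 15311 and 12692 CPM, were lowest in replicate 3. Within the KO replicates of each sex, muscle and neural marker sums were lowest in the high library, with muscle at 144, 88.2 and 148 CPM in female and 116, 97.6 and 79.4 CPM in male KO replicates, and neural at 813, 599 and 727 CPM and at 545, 514 and 463 CPM. The part of these markers in the results was not tested. Medians of KO against wild-type, and numbers of genes above 0, are given with and without the high KO libraries.

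**Figure D1:**
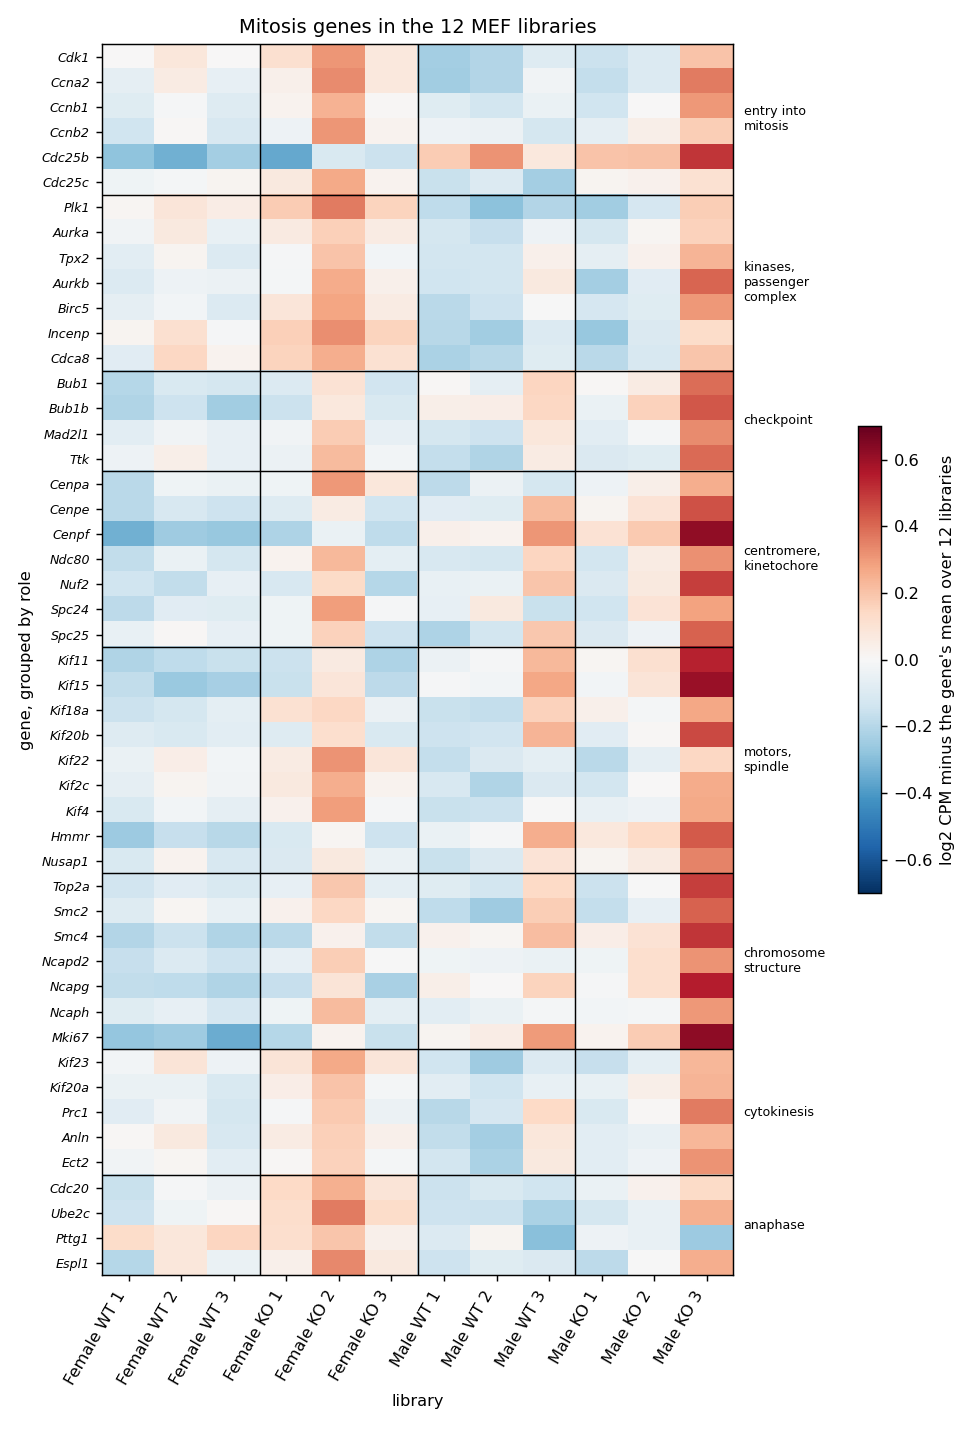
Each row is a mitosis gene, each column a library, and the colour is log2 CPM minus the mean of that gene over the 12 libraries. Rows are ordered by role and black lines separate the groups and the roles. Female KO replicate 2 and male KO replicate 3 are the reddest columns, *Pttg1* is the only row that is blue in male KO replicate 3, and *Cdc25b*, *Cenpf* and *Mki67* are bluer in the female than in the male columns.

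All 49 genes were well above the counting limit, and their levels were compared per length, as approximate TPM from merged annotated exons. The highest mean level over the 12 libraries was that of *Anln*, at 142 approximate TPM, which encodes anillin, a scaffold of the cleavage furrow. It was followed by *Cdc20*, at 137, which encodes the mitotic activator of the APC/C. The lowest were *Kif18a*, a kinesin that dampens chromosome movements at the metaphase plate, at 5.37, and the phosphatase *Cdc25b*, at 11.95. *Kif18a*, *Ccna2*, *Cenpf*, *Spc24*, *Kif4*, *Hmmr*, *Ncapg*, *Kif20a* and *Ube2c* had no whole expected count in any library, so part of their reads was shared out between genes by the counting model and their levels are less certain.

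The mitosis genes moved together from library to library. After the group means had been taken out, the median correlation of log2 CPM over the 1176 pairs of genes was 0.894, with quartiles of 0.754 and 0.941, and 80.0% of pairs were above 0.7. Over all pairs of tested genes the median was -0.001. These correlations run over 12 libraries that differ in depth. Without male KO replicate 3 the median was 0.776, and without both it was 0.640. The median SD within groups was 0.134 on the log2 scale for the mitosis genes and 0.125 for all tested genes.

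*Cdk1*, the kinase that starts mitosis, followed the mean of the other 48 genes most closely, with r = 0.991 over the 12 centred libraries. Its level was 115, 122 and 115 CPM in female wild-type, 125, 143 and 122 CPM in female KO, 97.95, 100.01 and 109 CPM in male wild-type, and 104, 108 and 132 CPM in male KO MEFs. *Ccna2*, the S- and M-phase cyclin A2, had r = 0.989, and *Smc4*, a core subunit of condensin, had r = 0.988. *Top2a*, topoisomerase II, had r = 0.988, *Mad2l1* of the spindle checkpoint 0.986, and *Mki67*, which encodes the proliferation antigen Ki-67, 0.967. *Top2a* was at 287, 298 and 293 CPM among female wild-type and 303, 360 and 300.2 CPM among female KO libraries. Its male libraries were at 297, 288 and 348 CPM without and 284, 315 and 440.3 CPM with the deletion. For both genes the highest KO library was the one named above.

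In all, 46 of the 49 genes had r above 0.7 with the mean of the others, against 10.2% of the 15338 other tested genes. The remaining genes were both CDC25 phosphatases, *Cdc25b* with r = 0.540 and *Cdc25c* with r = 0.489, and the securin gene *Pttg1* with r = -0.544. Securin holds separase inactive until anaphase. *Pttg1* was at 12.3, 11.9 and 12.5 CPM in female wild-type, 12.3, 12.9 and 11.6 CPM in female KO, 10.5, 11.4 and 9.19 CPM in male wild-type, and 11.002, 10.9 and 9.43 CPM in male KO MEFs. It was thus lowest in male wild-type replicate 3 and male KO replicate 3, where most of the other genes were highest. Among anaphase genes, *Cdc20* had r = 0.792, the ubiquitin-conjugating enzyme gene *Ube2c* 0.842 and the separase gene *Espl1* 0.875.

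Genes outside the list followed the same course. The 5 closest were *Usp1* with r = 0.995, which encodes a deubiquitinase of the DNA damage response, the helicase gene *Pif1* with 0.991, *Pold3* of DNA polymerase delta with 0.990, *C330027C09Rik* with 0.989 and *Shcbp1*, a spindle midzone protein gene, with 0.989. Of 40 DNA replication genes, 36 had r above 0.7 with the mean of the mitosis genes, with a median of 0.890, as had 47 of 73 further mitosis genes, with a median of 0.859. Among 27 p53 targets and CDK inhibitors the median was -0.51, 2 were above 0.7 and 5 (18.5%) were under -0.7, against 11.7% of the other tested genes. As a deviation from its overall mean, the replication list was at 0.23 in female KO replicate 2 and 0.19 in male KO replicate 3 on the log2 scale, and the p53 and CDK inhibitor list at -0.12 and -0.19. These were the highest and the lowest libraries of their groups.

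**Figure D2:**
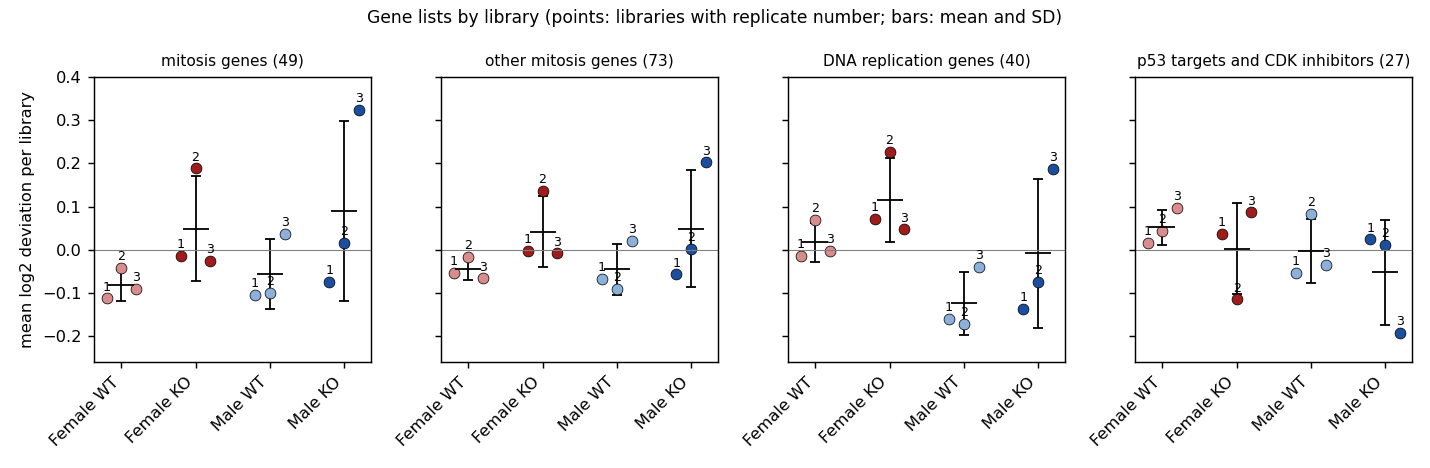
Each point is a library, numbered by replicate, and shows the mean over the genes of a list of log2 CPM minus the overall mean of each gene. Bars give the group mean and SD (n = 3). Female KO replicate 2 and male KO replicate 3 lie highest of their groups in the mitosis (0.19 and 0.32) and replication lists and lowest in the list of p53 targets and CDK inhibitors.

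Promoters of genes expressed late in the cell cycle often carry a cell cycle genes homology region (CHR), which binds the MuvB core shared by the repressive DREAM and the activating B-MYB and FOXM1 complexes, and CCAAT boxes, which bind NF-Y. Because the genes moved together, the letters of these elements were searched in the RefSeq promoters of GRCm38.p6, from 250 bases before to 50 bases after each start. The table held 43 promoters for 41 of the 49 genes. The CHR-like letters TTTGAA, or else TTCGAA, were present on either strand in 34 of 43 (79.1%), against 13.8% of the 13159 promoters of tested genes and 19.2% of all 32851 promoters. CCAAT, again on either strand, was present in 31 of 43 (72.1%), against 37.4% of either background, and 2 or more copies in 20 (46.5%), against 13.7% and 11.7%. Both elements were present in 29 of 43 promoters (67.4%), against 5.62% and 7.52%. A stretch of letters could count for more than a single motif. A match describes the letters only and is not evidence of binding.

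The 150 bases before the start are shown for 8 genes, chosen as genes that followed the group mean closely (*Cdk1*, *Top2a*, *Mad2l1* and *Mki67*), the genes with the highest log2 fold changes between KO and wild-type in female MEFs (*Cdc20* and *Ube2c*) and genes that did not follow the mean (*Cdc25b* and *Pttg1*). Capitals mark the motifs named above, read on either strand, and each sequence reads 5′ to 3′ towards its gene.
*Cdk1* (chr10:69352913-69353062, minus strand): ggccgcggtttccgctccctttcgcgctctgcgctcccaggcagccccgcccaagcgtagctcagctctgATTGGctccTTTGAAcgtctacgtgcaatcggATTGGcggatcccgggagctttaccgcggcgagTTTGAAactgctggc
*Top2a* (chr11:99024190-99024339, minus strand): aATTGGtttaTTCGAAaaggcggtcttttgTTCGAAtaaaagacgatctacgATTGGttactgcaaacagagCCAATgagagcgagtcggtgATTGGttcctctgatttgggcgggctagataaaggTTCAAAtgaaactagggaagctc
*Mad2l1* (chr6:66535071-66535220, plus strand): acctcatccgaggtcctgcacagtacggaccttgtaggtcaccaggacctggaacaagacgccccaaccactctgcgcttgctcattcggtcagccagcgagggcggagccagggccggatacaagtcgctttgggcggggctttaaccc
*Mki67* (chr7:135716380-135716529, minus strand): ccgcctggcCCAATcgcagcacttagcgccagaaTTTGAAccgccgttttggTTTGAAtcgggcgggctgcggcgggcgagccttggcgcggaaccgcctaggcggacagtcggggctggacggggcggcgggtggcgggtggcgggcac
*Cdc20* (chr4:118437344-118437493, minus strand): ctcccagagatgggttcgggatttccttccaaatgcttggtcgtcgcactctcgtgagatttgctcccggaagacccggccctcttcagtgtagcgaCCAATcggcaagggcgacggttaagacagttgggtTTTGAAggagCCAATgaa
*Ube2c* (chr2:164769779-164769928, plus strand): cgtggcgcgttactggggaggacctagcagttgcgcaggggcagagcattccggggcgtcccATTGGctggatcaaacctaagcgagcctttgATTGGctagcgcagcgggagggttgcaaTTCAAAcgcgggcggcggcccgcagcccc
*Cdc25b* (chr2:131186798-131186947, plus strand): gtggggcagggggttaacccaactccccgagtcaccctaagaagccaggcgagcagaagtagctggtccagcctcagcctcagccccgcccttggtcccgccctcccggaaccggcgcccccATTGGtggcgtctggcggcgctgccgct
*Pttg1* (chr11:43425982-43426131, minus strand): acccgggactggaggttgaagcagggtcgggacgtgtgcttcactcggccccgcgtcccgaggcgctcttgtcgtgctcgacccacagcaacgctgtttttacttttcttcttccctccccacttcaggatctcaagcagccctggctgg
In *Cdk1* the motif TTTGAA began 15 and 71 bases before the start and CCAAT boxes read in reverse stood between and beside them. In *Cdc20* it began 18 bases before the start with CCAAT on either side, and in *Ube2c* and *Top2a* the copy nearest to the start was read in reverse, 29 and 23 bases before it. In *Mki67* it stood farther out, 98 and 116 bases before the start. *Mad2l1*, which followed the mean with r = 0.986, and *Pttg1*, which ran against it, both lacked all 3 motifs in the window of 300 bases. *Cdc25b* had a reverse CCAAT box 28 bases before the start and TTCGAA from base 8 of the transcript, outside the letters shown.

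The first comparison asked whether deletion of *Firre* changed the level of these genes in female MEFs. The quasi-likelihood test of edgeR was used, with p-values adjusted by Benjamini-Hochberg over the 15387 genes. None of the 49 mitosis genes (0 of 49) passed the thresholds of the study, an adjusted p under 0.01 together with a log2 change beyond 1 either way, as did 0.0065% of all genes, and 0 of 49 passed an adjusted p under 0.05, as did 0.013% of all genes. At an unadjusted p under 0.05 there were 4 genes (8.16%), all higher in KO, against 7.55% of all genes, or 4.58% counting only those higher in KO. DESeq2 called 0 at an adjusted p under 0.05 and 2 at an unadjusted one, against 0.163% and 6.72% of the same 15387 genes, of which 7 had no p by DESeq2. The log2 fold change was nevertheless above 0 for 48 of 49 genes, against 49.9% of all genes, with a median of 0.14 against -0.00032. For 20 of 49 genes every KO library lay above every wild-type library, as for 10.9% of all genes.

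*Ube2c* and *Cdc20*, both genes of anaphase, had the highest log2 fold changes. *Cdc20* was at 81.2, 90.0 and 87.9 CPM in female wild-type MEFs and 99.4, 108 and 96.3 CPM in female KO MEFs, so the groups did not overlap. Its log2 fold change was 0.23 ± 0.058 (SE), a fold of 1.17, with adjusted p = 0.492 by edgeR. *Ube2c* was at 51.1, 55.4 and 57.0 CPM against 61.6, 72.9 and 62.0 CPM, with a log2 fold change of 0.26 ± 0.095 (SE) and adjusted p = 0.573 by edgeR. *Espl1*, which encodes the protease that cleaves cohesin, had a log2 fold change of 0.20 and *Pttg1* of -0.0020, the lowest of the 49.

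The other genes at an unadjusted p under 0.05 were *Cenpa*, the centromeric histone H3 variant, and *Ncapd2*, a condensin I subunit. *Cenpa* was at 36.0, 40.1 and 39.6 CPM in female wild-type and 40.2, 50.6 and 43.4 CPM in female KO MEFs, with a log2 fold change of 0.21 ± 0.093 (SE). *Ncapd2* was at 105, 109 and 106 CPM against 112, 132 and 117 CPM, with 0.17 ± 0.079 (SE). The lowest KO library lay above the highest wild-type library for both, by a narrow margin for *Cenpa*, and replicate 2 lay well above the rest.

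By role, medians ran from 0.10 for the checkpoint to 0.22 for anaphase. The log2 fold change had a median of 0.15 over the 6 genes of mitotic entry, from 0.08 for *Cdc25b* to 0.19 for *Ccnb2*, the gene of cyclin B2, with 0.16 for cyclin B1, *Ccnb1*. It was 0.16 over the 7 genes of the mitotic kinases and the chromosomal passenger complex, where *Birc5*, the survivin gene, was at 58.3, 60.2 and 57.1 CPM in wild-type and 64.8, 73.9 and 63.5 CPM in KO MEFs and had the highest value, 0.20. Over the 4 checkpoint genes it was 0.10, with *Bub1b* (BubR1) at 0.14, the kinase gene *Bub1* at 0.10 and the kinase gene *Ttk* (MPS1) at 0.07. Over the 7 centromere and kinetochore genes it was 0.14, from 0.04 for *Spc25* of the NDC80 complex to the 0.21 of *Cenpa*. It was 0.14 over the 9 spindle genes, 0.13 over the 7 genes of chromosome structure, 0.12 over the 5 of cytokinesis and 0.22 over the 4 of anaphase. In the spindle group the mitotic kinesin gene *Kif11* (Eg5) had 0.09 and the chromokinesin gene *Kif4* 0.17, and in cytokinesis *Kif23* (MKLP1) had 0.14 and *Prc1*, which bundles midzone microtubules, 0.12.

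Much of this difference sat in KO replicate 2. Without it the median was 0.07, 41 of 49 genes were above 0 and 1 gene had an unadjusted p under 0.05, against 5.82% of all genes in that fit. The count of 4 was also 1 without wild-type replicate 1, 2 without wild-type replicate 3, male wild-type replicate 1 or male KO replicate 2, 7 without male KO replicate 1 and 16 without male KO replicate 3. Among all genes the share at an unadjusted p under 0.05 was 4.34%, 6.26%, 7.24%, 6.88%, 7.3% and 9.75% in these fits, in the order named. With both high KO libraries left out, 4 of 49 genes had an unadjusted p under 0.05, against 7.87% of all genes. The 20 genes without overlap were still 20, since KO replicate 2 was the lowest KO library for none of them, while the share of all genes was 17.2%. Without both high KO libraries the role medians ran from 0.02 for the checkpoint to 0.14 for anaphase.

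The same comparison in male MEFs gave 0 of 49 genes past the thresholds of the study and 0 of 49 past an adjusted p under 0.05 in edgeR, where 0.0065% of all genes passed either rule. At an unadjusted p under 0.05 there were 5 genes (10.2%), all higher in KO, against 2.06% of all genes and 1.18% counting only those higher in KO, and DESeq2 gave 2 at an unadjusted and 0 at an adjusted p under 0.05, against 1.76% and 0.0325% of all genes. The log2 fold change was above 0 for 49 of 49 genes, against 47.7% of all genes, with a median of 0.15 against -0.0041. For 6 of 49 genes, namely *Cdc20*, *Cdc25c*, *Kif20a*, *Ncapd2*, *Cenpa* and *Ube2c*, the KO libraries lay wholly above the wild-type libraries, as for 2.78% of all genes.

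*Cdc20* was at 81.4, 84.1 and 82.0 CPM in the male wild-type libraries, against 87.6, 92.2 and 99.3 CPM in the KO libraries, with a log2 fold change of 0.17 ± 0.058 (SE) and adjusted p = 1 by edgeR. *Cdc25c*, which removes the inhibitory phosphates from CDK1, was at 9.40, 9.83 and 8.87 CPM against 10.6, 10.7 and 11.3 CPM, with 0.22 ± 0.072 (SE), the highest of the 49. Its KO libraries lay closer together than those of most members, with replicate 3 again highest. *Ncapd2* was at 114.47, 113.9 and 113.1 CPM against 114.54, 127 and 145 CPM, and *Cenpa* at 36.1, 39.9 and 37.7 CPM against 40.1, 42.1 and 49.02 CPM. Both had KO replicate 3 highest and only a narrow margin between the groups. *Kif20a* (MKLP2), a kinesin of cytokinesis, was at 137, 130.1 and 139 CPM against 139, 147 and 169 CPM, and its groups were separated by the smallest of margins. *Ccna2*, with 0.21, had groups that overlapped, at 93.1, 95.9 and 108 CPM against 98.4, 103 and 142 CPM.

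The lowest log2 fold changes in male MEFs were 0.0070 for *Pttg1*, 0.08 for *Kif22*, a chromokinesin, and 0.10 for *Incenp*, the scaffold of the chromosomal passenger complex. Medians by role ran from 0.14 over the passenger complex and kinases, and 0.14 over the checkpoint, to 0.17 over cytokinesis. *Plk1*, the kinase that drives spindle assembly and mitotic exit, had 0.17, *Aurkb*, the kinase of the passenger complex, 0.12, *Ndc80* of the outer kinetochore 0.12, the condensin gene *Ncapg* 0.17, *Mki67* 0.17 and *Nusap1*, a spindle-associated protein, 0.20.

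The dependence on a single library was stronger here than in female MEFs. Without KO replicate 3 the median was 0.02, 33 of 49 genes were above 0 and 1 gene had an unadjusted p under 0.05, against 4.71% of all genes in that fit. Without KO replicate 1, the lowest KO library for 47 of 49 genes, that count was 24, against 2.82% of all genes. Without wild-type replicate 3 it was 11, against 3.43%, with a median of 0.21 and 48 of 49 genes above 0. It was 2 without wild-type replicate 1 or female wild-type replicate 1 or 2, and 3 without wild-type replicate 2, female wild-type replicate 3 or female KO replicate 3, and over these 6 fits 1.79% to 3.23% of all genes had such a p. With both high KO libraries left out, 2 genes had an unadjusted p under 0.05, against 5.06% of all genes. Since KO replicate 3 was the lowest KO library for none of the 6 genes without overlap, these were still 6, while the share of all genes was 10.4%. Without both high KO libraries the role medians ran from -0.01 for chromosome structure to 0.08 for anaphase.

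**Figure D3:**
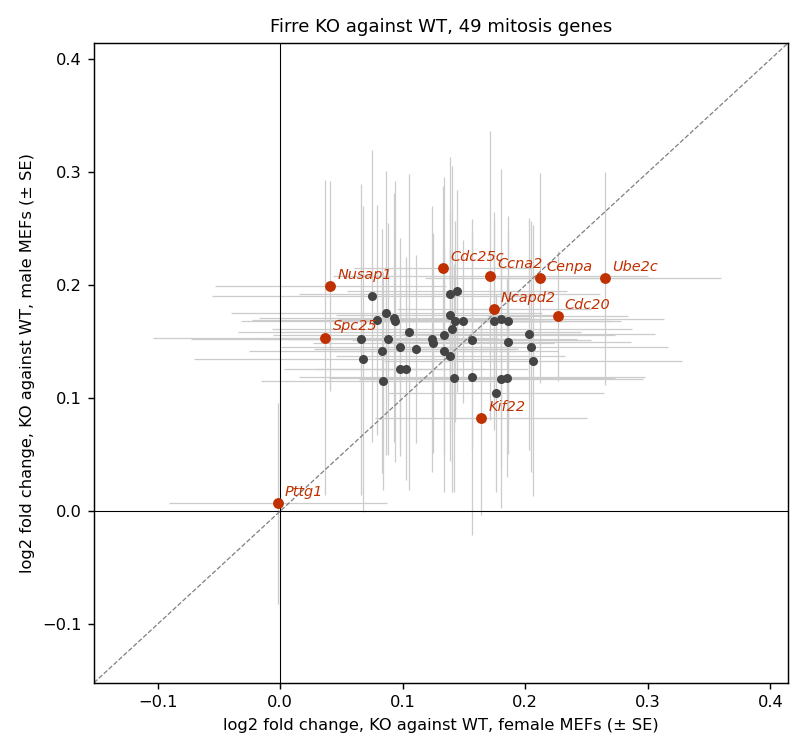
Each point is a mitosis gene, with its log2 fold change between *Firre* KO and wild-type in female (x) and male (y) MEFs and the SE of each as grey bars. The dashed line marks equal values. Apart from *Pttg1*, which lies at 0, all genes are above 0 in both sexes, and *Cdc20*, *Ube2c* and *Cenpa* are toward the upper right.

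Averaged over the sexes, 49 of 49 genes had a log2 fold change above 0, against 48.8% of all genes, with a median of 0.14 against -0.0021. In edgeR 0 of 49 passed the thresholds of the study (0.0065% of all genes) and 0 of 49 an adjusted p under 0.05 (0.0195%), while 18 had an unadjusted p under 0.05, all higher in KO, against 6.24% of all genes, of which those higher in KO were 3.72%. By DESeq2 it was 9, against 5.46% of all genes. *Cdc20* had 0.20 ± 0.041 (SE), with a 95% interval of 0.11 to 0.29 and an adjusted p of 0.487 by edgeR, the smallest among the 49. Its adjusted p ran from 0.075 to 1 over the alternatives, none of which brought it under 0.05. *Ube2c* had 0.24, *Cenpa* 0.21, *Cdc25c* 0.17, *Plk1* 0.18 and *Cdk1* 0.16, and at the other end *Spc25* and *Cdc25b* had 0.10 and *Pttg1* 0.0025. The count of 18 was 6 without female KO replicate 2, 8 without female wild-type replicate 1, 9 without male wild-type replicate 1 or 2 or male KO replicate 3, 10 without female wild-type replicate 3, and 35 without male KO replicate 1. In these fits 4.17% to 9.84% of all genes had an unadjusted p under 0.05. Without female KO replicate 2 and male KO replicate 3 together the median was 0.05, with 39 genes above 0 and 6 at an unadjusted p under 0.05, against 9.35% of all genes.

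The effect of the deletion did not differ detectably between the sexes for any of the 49 genes. The test of the difference itself gave 0 genes at an adjusted p under 0.05 and 0 at an unadjusted one by either edgeR or DESeq2, where 3.19% and 2.88% of all genes had an unadjusted p under 0.05. The values ran from -0.16 for *Nusap1*, with a 95% interval of -0.45 to 0.13, to 0.08 for *Kif22*, with an interval of -0.19 to 0.35. Next to them were *Spc25* and *Ttk*, both at -0.12, and *Spc24* and *Incenp*, both at 0.07, and 18 of 49 were above 0, against 50.9% of all genes. Without male KO replicate 3 the median of this difference went from -0.02 to 0.11 and 46 genes were above 0, and without female KO replicate 2 only 2 were. The count was 31 without female KO replicate 3, 5 without male KO replicate 1 and 10 without male KO replicate 2, so the direction of the difference was set by single libraries. With both high KO libraries left out, 39 were above 0, with a median of 0.02.

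None of the genes of the 3 related lists passed an adjusted p under 0.05 between KO and wild-type in either sex by edgeR. Of 73 further mitosis genes, 64 were above 0 in female and 64 in male MEFs, against 49.9% and 47.7% of all genes, with medians of 0.09 and 0.11. An unadjusted p under 0.05 was reached by 4 and 5 of them, against 7.55% and 2.06% of all genes. Without both high KO libraries 54 and 43 were above 0, with medians of 0.05 and 0.02. In that fit 6 and 1 had an unadjusted p under 0.05, against 7.87% and 5.06% of all genes. Of 40 DNA replication genes, 39 and 40 were above 0, with medians of 0.09 and 0.11, and 5 and 2 had an unadjusted p under 0.05. Without both libraries 33 and 25 were above 0, with medians of 0.04 and 0.01, and 3 and 0 had such a p, against the same 7.87% and 5.06%. Of 27 p53 targets and CDK inhibitors, 9 and 7 were above 0, with medians of -0.05 in both sexes, and 3 and 1 had an unadjusted p under 0.05. Without both libraries 14 and 13 were above 0, with medians of 0.01 and -0.0034, and 2 and 2 had such a p, against the same 7.87% and 5.06%. With male wild-type replicate 3 left out instead, 60 further mitosis, 40 replication and 10 p53 and CDK inhibitor genes were above 0 in male MEFs. Their medians were 0.14, 0.14 and -0.03.

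The second question the groups allow is how female and male MEFs differ. In wild-type MEFs 6 of 49 mitosis genes (12.2%) passed an adjusted p under 0.05 in edgeR, against 38.7% of all genes, and 0 passed the thresholds of the study, against 4.54%. Of these, 5 were lower in female MEFs, where 19.8% of all genes passed, and 1 was higher, where 18.9% did. A log2 fold change above 0 was found for 27 of 49 genes, against 49.4% of all genes, with a median of 0.0093. In KO MEFs 7 of 49 (14.3%) passed, against 38.7% of all genes, with 5 lower (19.7% of all genes) and 2 higher (18.9%), and 0 passed the thresholds of the study, against 3.89%. Among the KO libraries 23 of 49 were above 0, against 49.5% of all genes, with a median of -0.02. The female libraries lay wholly above the male ones for 9 of 49 genes and wholly below for 13 in wild-type MEFs, against 25.5% and 26.4% of all genes, and for 2 and 5 in KO MEFs, against 24.5% and 25.7%. The WT and KO comparisons use separate libraries. They agreed in sign for 41 of 49 genes (83.7%), against 86.4% of all genes, and 5 genes passed in both out of 8 that passed in either.

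*Cdc25b* differed most. The gene lies at chr2:131012685-131024233 on the plus strand of mm9 and encodes the phosphatase that first activates CDK1 at the centrosomes. It was at 12.7, 12.3 and 13.1 CPM in female and 17.5, 19.2 and 16.3 CPM in male wild-type libraries. The KO libraries were at 12.05, 14.4 and 13.9 CPM in female and 17.8, 17.8 and 21.9 CPM in male MEFs. No female library reached a male library in either genotype. The log2 fold change was -0.48 ± 0.098 (SE), with adjusted p = 0.0033, in wild-type and -0.51 ± 0.098 (SE), with adjusted p = 0.0023, in KO MEFs by edgeR. Over the alternatives the adjusted p stayed between 0.00061 and 0.016 in wild-type and between 0.00024 and 0.014 in KO MEFs.

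*Cenpf*, a large protein of the outer kinetochore, was at 54.3, 57.7 and 57.0 CPM in female and 70.2, 69.7 and 84.8 CPM in male wild-type MEFs, with a log2 fold change of -0.41 ± 0.12 (SE) and adjusted p = 0.021 by edgeR. Among KO libraries it was at 59.0, 66.4 and 60.6 CPM against 73.6, 77.9 and 105 CPM, with -0.46 ± 0.12 (SE) and adjusted p = 0.012 by edgeR. The female libraries were below the male libraries in both genotypes. *Mki67* was at 249, 254 and 237 CPM in female and 305, 313 and 370.3 CPM in male wild-type MEFs, with -0.42 ± 0.13 (SE) and adjusted p = 0.029 by edgeR. Among KO MEFs it was at 262, 306 and 269.9 CPM against 307, 341 and 465 CPM, with -0.41 and adjusted p = 0.031, and there the highest female library lay just under the lowest male library.

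*Hmmr*, a spindle and centrosome protein gene, fell by 0.28 on the log2 scale in female against male wild-type MEFs and by 0.30 in KO MEFs, with adjusted p = 0.044 and 0.031 by edgeR. *Bub1b* passed in wild-type MEFs alone, with -0.28 and adjusted p = 0.0496, and had -0.25 and adjusted p = 0.068 in KO MEFs. *Smc4* passed in KO MEFs alone, with -0.34 and adjusted p = 0.030, and had -0.28 and adjusted p = 0.063 in wild-type MEFs. That a gene passed in a single genotype is not a difference between genotypes, since the test of that difference gave 0 genes.

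Genes higher in female MEFs were *Plk1* and *Incenp*. *Plk1* was at 66.4, 69.9 and 68.4 CPM in female and 58.3, 54.0 and 57.2 CPM in male wild-type MEFs, without overlap, and at 74.6, 84.7 and 73.5 CPM against 55.6, 60.7 and 74.4 CPM in KO MEFs, where male KO replicate 3 reached the female range. Its log2 fold changes were 0.27 and 0.29, with adjusted p = 0.038 and 0.029 by edgeR. *Incenp* was at 66.4, 71.0 and 65.3 CPM against 57.3, 55.4 and 61.5 CPM in wild-type MEFs, with 0.22 and adjusted p = 0.072, and at 73.7, 82.1 and 73.0 CPM against 54.6, 61.1 and 71.6 CPM in KO MEFs, with 0.29 and adjusted p = 0.023 by edgeR. *Pttg1* had log2 fold changes of 0.24 and 0.23, without overlap in either genotype, and adjusted p = 0.053 and 0.062 by edgeR.

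**Figure D4:**
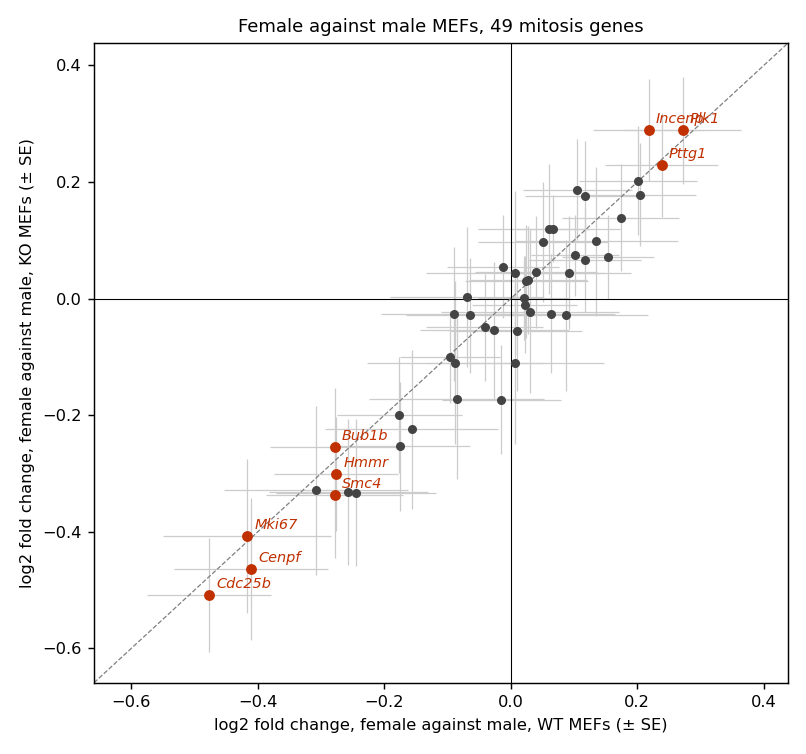
Each point is a mitosis gene, with its log2 fold change between female and male MEFs among wild-type (x) and KO (y) libraries and the SE of each as grey bars. Points follow the dashed line of equal values, from *Cdc25b*, *Cenpf* and *Mki67* at the lower left to *Incenp*, *Plk1* and *Pttg1* at the upper right.

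By role, all 7 genes of the mitotic kinases and the passenger complex were above 0 in wild-type MEFs, with a median of 0.10, and all 4 anaphase genes, with 0.09. The centromere and kinetochore genes had 2 of 7 above 0, with a median of -0.09, the spindle genes 3 of 9, with -0.07, and the genes of chromosome structure 1 of 7, with -0.10. Mitotic entry had 4 of 6 above 0, with 0.08, the checkpoint 2 of 4, with -0.08, and cytokinesis 4 of 5, with 0.06. Without male wild-type replicate 3, 32 of 49 genes were above 0, with a median of 0.06, and the spindle median was 0.05 with 6 of 9 above 0. In KO MEFs the medians of the first 5 roles were 0.10, 0.15, -0.11, -0.17 and -0.11, and those of entry, checkpoint and cytokinesis 0.06, -0.13 and 0.0013. Without male KO replicate 3 the latter were 0.14, 0.0034 and 0.11, and the first 5 were 0.26, 0.20, 0.07, 0.01 and -0.0058, with a median of 0.10 over the 49 genes, and without female KO replicate 2 the first 5 were 0.04, 0.08, -0.20, -0.22 and -0.20. Exon length was also compared. Across the 49 genes the log2 fold change ran against log exon length with r = -0.46 in wild-type and -0.50 in KO MEFs, where over all 15387 genes r was -0.05 and -0.08. Of the 24 genes of up to 4059 bases, 18 were above 0 in wild-type and 17 in KO MEFs, and of the 25 genes of 4095 bases or more, 9 and 6. With a smooth trend over exon length removed from each library, *Cdc25b* and *Cdca8* passed an adjusted p under 0.05 in wild-type MEFs, and *Cdc25b*, *Incenp*, *Cdca8* and *Cenpf* in KO MEFs, against 36.5% and 36.3% of all genes. The genes that no longer passed in wild-type MEFs kept their direction, with log2 fold changes of -0.28 for *Cenpf*, -0.30 for *Mki67*, 0.24 for *Plk1*, -0.24 for *Bub1b* and -0.20 for *Hmmr* and adjusted p from 0.065 to 0.11 by edgeR. In KO MEFs those were *Mki67* with -0.28, *Plk1* with 0.25, *Hmmr* with -0.23 and *Smc4* with -0.27, with adjusted p from 0.066 to 0.092. The part of transcript length in these differences was not tested further, and depth was also greater in the male libraries.

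**Figure D5:**
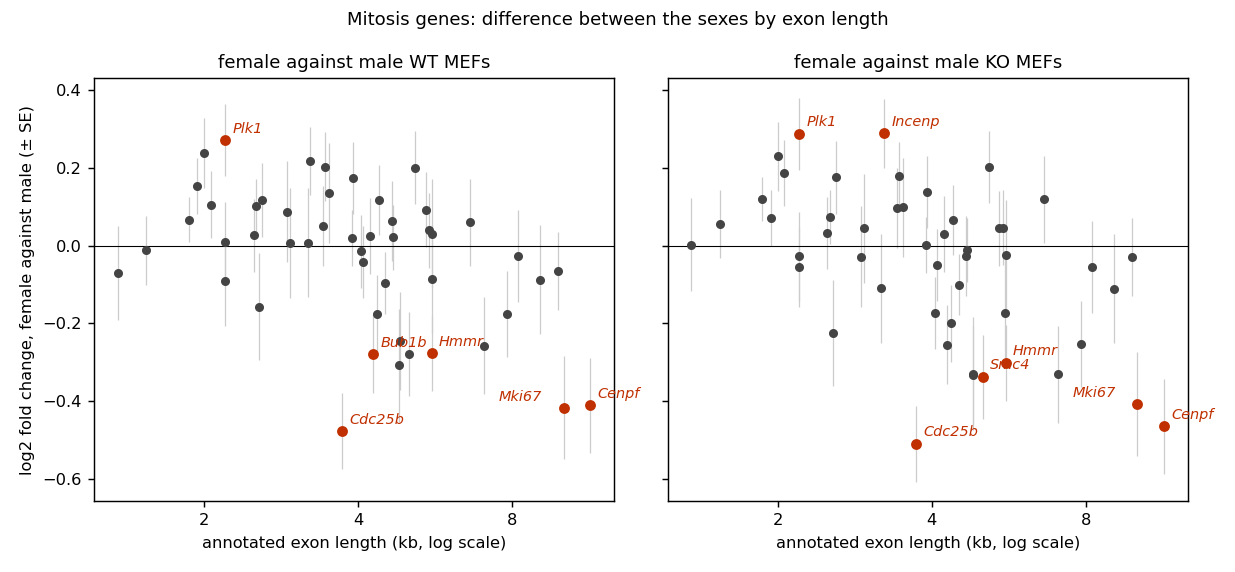
The log2 fold change between female and male MEFs (y, with SE) is plotted against annotated exon length in kb on a log scale (x) for the 49 mitosis genes, with wild-type MEFs at left and KO MEFs at right. Named points passed an adjusted p under 0.05, and the longer genes lie lower in both panels, while *Cdc25b* lies below genes of its length.

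The counts of 6 and 7 moved with single libraries. In wild-type MEFs the count was 1 without female replicate 1, female replicate 3 or male replicate 3, where *Cdc25b* alone was left, 2 without female replicate 2, and 15 without male KO replicate 3. In these fits 31.7%, 29.4%, 36.8%, 29.2% and 42.5% of all genes passed. In KO MEFs it was 4 without female replicate 1 or 3, where 29.9% and 30.4% of all genes passed, and 13 without male replicate 3, where 38.1% did, and the number of genes above 0 was 13 without female replicate 2 or male replicate 1 and 35 without male replicate 3. DESeq2 gave 3 in wild-type MEFs, namely *Cdc25b*, *Cenpf* and *Mki67*, and 7 in KO MEFs, against 37.7% and 38% of all genes. With only the 6 libraries of a comparison in the fit, 14 genes passed in wild-type MEFs and 2, *Cdc25b* and *Cenpf*, in KO MEFs, against 36.8% and 34.8% of all genes. Over the 20 alternatives in wild-type MEFs *Cdc25b* passed in 20, *Cenpf* in 16, *Mki67* in 15, *Plk1* in 11, *Hmmr* in 10 and *Bub1b* in 6. Among KO MEFs *Cdc25b* and *Cenpf* passed in 20, *Incenp* in 16, and *Plk1*, *Hmmr*, *Mki67* and *Smc4* in 15 each.

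Of the related lists, 20 of 73 further mitosis genes passed an adjusted p under 0.05 in wild-type and 18 in KO MEFs, against 38.7% of all genes in each. With lower values in female MEFs, 13 and 10 of this list passed, against 19.8% and 19.7% of all genes. The 2 with the smallest p in each were *Cdc16* of the APC/C, with log2 fold changes of -0.33 in both, and *Kntc1*, which recruits dynein to kinetochores, with -0.73 and -0.71. Of 40 DNA replication genes, 12 and 9 passed, all higher in female MEFs. These were 30% and 22.5% of the list, where 18.9% of all genes passed with higher values in female MEFs in each genotype. They were led by the cyclin E1 gene *Ccne1* with 0.70 in both. *Orc6*, of the origin recognition complex, had 0.43 in wild-type MEFs and *Cdt1*, the licensing factor gene, 0.37 in KO MEFs. Of 27 p53 targets and CDK inhibitors, 9 and 8 passed, a smaller share than that of all genes, and *Cdkn1c*, the imprinted inhibitor p57, had the smallest p with 1.93 and 1.82. Next came *Zmat3* with -0.25 in wild-type and *Btg2* with -0.55 in KO MEFs, both p53 targets. The summed markers of macrophages, epithelium, endothelium and neural cells given above were higher in female MEFs too. So were *Myog*, with log2 fold changes of 4.31 in wild-type and 4.47 in KO MEFs, and *Mylpf*, with 3.15 and 3.41. Lower were the fibroblast sum in KO MEFs, *Acta1* in wild-type MEFs, *Col5a1*, with -0.75 and -0.73, and *Pdgfrb*, with -0.64 and -0.81. Mean CPM of the fibroblast markers *Dcn* and *Vim* was not lower in either genotype. The part of all these markers in the differences between the sexes was not tested.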

How the data were processed

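RNA-seq of 12 MEF libraries was analysed, and the Hi-C and ChIP-seq samples of the study were not used here. The authors filtered and mapped reads with Bowtie2 to mm9, and used RSEM 1.2.29 to obtain the deposited values, unscaled expected counts of each gene. From 14.7% to 16.8% of a library's values were not whole numbers, which are reads shared between genes. Coordinates and merged exon lengths came from the NCBIM37 annotation, which holds all 37310 gene identifiers, and approximate TPM from those lengths.

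After rounding, a quasi-likelihood model of 4 group means was fitted in edgeR 4.0.16 under R 4.3.3, scaled by TMM and filtered by filterByExpr, with 8 residual degrees of freedom. P-values were adjusted over 15387 genes by Benjamini-Hochberg. The common biological coefficient of variation was 0.114. Log2 CPM had a prior count of 2. For co-variation, group means were subtracted. Steps were tested on simulated data. DESeq2 1.42.0, other scalings and filters, a replicate block, the compared libraries alone and each library left out were the alternatives, and removal of both high KO libraries or of a trend over exon length was added after seeing the data. Promoter letters came from RefSeq, and members without an entry are not shown. No pair of replicates was alike within sampling noise.

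The 49 genes, the other lists and the marker lists were chosen with earlier results of these data known. Genes were named by a rule: *Firre*, 20 genes standing for the roles, the 3 highest and 3 lowest log2 fold changes per comparison, members past an adjusted p under 0.05, the 2 highest and 2 lowest levels, the 3 highest and 3 lowest correlations, the 5 closest other genes and the 2 of each list with the smallest p. Genes outside the rule, such as those at an unadjusted p under 0.05, were named after their values were seen. The lowest value of a member in any library was 281 expected counts. Replicate numbers were not taken to pair libraries.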

Additional observations from a re-analysis of the deposited data

How the results depend on the processing

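No mitosis gene passed the thresholds of the study in any of the 6 comparisons under any alternative. An adjusted p under 0.05 with no fold limit gave 6 and 7 genes between female and male wild-type and KO MEFs. The median log2 fold change between KO and wild-type in male MEFs was 0.0229 without male KO replicate 3 alone and 0.0228 without both high KO libraries, and ran from 0.0229 to 0.24 with each library left out. That of the difference between the sexes ran from -0.094 to 0.11. The median correlation was 0.72 with overall in place of group means subtracted, 0.64 without both high KO libraries, and 0.776 to 0.919 with each library left out. Without both high KO libraries *Spc25* was at -0.050 and *Nusap1* at -0.0093 in female, *Kif22* at -0.012 and *Incenp* at -0.0046 in male, and *Spc25* at -0.037 in averaged MEFs. *Pttg1* averaged -0.00068 with library size alone and -0.00084 with at least 10 counts in every library. With each library left out, log2 fold changes crossed 0 for *Pttg1* in female (-0.042 to 0.037), male (-0.073 to 0.083) and averaged MEFs (-0.038 to 0.040), for *Spc25* (-0.050 to 0.10) and *Nusap1* (-0.0091 to 0.086) in female MEFs, for *Kif22* (-0.012 to 0.16) and *Incenp* (-0.0045 to 0.19) in male MEFs, and in the difference between the sexes for *Incenp* (-0.016 to 0.18), *Kif22* (-0.0044 to 0.18), *Spc24* (-0.039 to 0.18), *Spc25* (-0.25 to 0.061) and *Ttk* (-0.20 to 0.066). The replicate block changed no other call than *Pttg1*, which passed an adjusted p under 0.05 between the sexes, at 0.032 in wild-type and 0.039 in KO MEFs, and gave medians of 0.14 and 0.15 for KO against wild-type in female and male MEFs. Correlations of same-numbered libraries were -0.16 to -0.12 in the female and 0.097, 0.22 and 0.33 in the male KO comparison, and -0.13 to 0.13 between the sexes. Not every pair was over 0.1, and the labels name no shared litter or day, so the numbers were not taken as pairs. In fits of the 6 libraries compared, 14 and 2 genes passed an adjusted p under 0.05 between the sexes. The cause of these shifts was not tested. No member was under 281 expected counts in any library.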
